A study of Mus musculus with 4 samples.

Results

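The nuclei described here were picked from the 2 libraries of infarcted mouse heart by transcripts of neutrophil genes. A nucleus was chosen when it had at least 500 UMIs (unique molecular identifiers, each a counted RNA molecule) and 300 genes, and less than 2% of its UMIs from the cardiomyocyte genes Ttn, Ryr2 and Myh6. It also needed a UMI of at least 3 of the 8 rule genes Csf3r, Cxcr2, Retnlg, Il1r2, Hdc, S100a8, S100a9 and Mmp9, with Csf3r or Cxcr2 among them. The count of rule genes had to exceed that of the 5 macrophage genes Csf1r, Adgre1, Mrc1, Mertk and Ms4a7. The rule chose 121 of the 28216 nuclei of the series, 35 in the wild type (WT) library and 86 in the Q150X library. They are called chosen nuclei below, because many of them also carried the transcripts of other heart cells.

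Hearts of wild type mice and of mice with Q150X, a Vegfa allele made by CRISPR/Cas9 editing that carries a premature stop, were compared in homeostasis and at 3 days after myocardial infarction (3dpMI). The series text writes the allele with an unmodified Q150 beside it and marks the mice HO, so zygosity could not be settled. Each of the 4 groups was 1 library of nuclei from heart labelled total cells, and the labels used here state no strain, age, sex or number of hearts. With 1 library per group there is no replicate check, no test was run. The ranges given with values are 95% confidence limits for counting alone.

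Neutrophils are short-lived granulocytes made in bone marrow under the control of the G-CSF receptor Csf3r. The chemokine receptor Cxcr2 draws them out of the blood, and they are among the first cells to enter an infarct, where they phagocytose debris, release granule proteases and oxidants, and send signals to monocytes. Their nuclei hold little RNA, and the granule proteins are transcribed mostly in marrow precursors, so circulating neutrophils carry granules whose transcripts are largely gone.

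The 4 libraries held 4390 to 9157 nuclei and 5875965 to 32657625 UMIs, with median depths of 934 and 995 UMIs per nucleus in homeostasis and 2131 and 2859.5 at 3dpMI. The 3dpMI libraries shared 117 cell barcodes, and none of these belonged to a chosen nucleus. Rule genes were also found outside the chosen nuclei. In nuclei that were neither chosen nor classed as macrophage they summed to 38.0 CPM (UMIs per 1000000 UMIs of the same nuclei) in WT 3dpMI and 88.1 CPM in Q150X 3dpMI. Macrophage nuclei, defined by the mirrored rule with at least 3 of the 5 macrophage genes and more of them than of rule genes, held 116 and 184 CPM.

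Chosen nuclei made up 0.383% of the WT 3dpMI nuclei (35 of 9149, interval 0.267% to 0.532%) and 1.06% of the Q150X 3dpMI nuclei (86 of 8120, 0.848% to 1.31%). The share was 2.77 times higher in the Q150X library, with an interval of 1.87 to 4.10. In homeostasis the same rule found 0 of 4387 WT nuclei, with an interval that reaches 0.0841%, and 1 of 6515 Q150X nuclei. Macrophage nuclei also differed in number, with 1071 in WT 3dpMI and 2043 in Q150X 3dpMI. The number of chosen nuclei per macrophage nucleus was 1.29 times higher in Q150X, with an interval of 0.864 to 1.92 that includes 1. The level of rule genes in the other nuclei and the depth of the nuclei also differed between the libraries in the same direction, and their part in the difference of shares was not tested. When every nucleus was thinned to 1000 UMIs, 9 WT and 13 Q150X nuclei met the rule, and the ratio of shares was 1.52 (0.652 to 3.56). Thinning left out the nuclei under 1000 UMIs, which were 1612 of 9149 in WT and 977 of 8120 in Q150X. The shares are of recovered nuclei, so fewer neutrophils in the tissue and poorer recovery of their nuclei cannot be told apart.

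The chosen nuclei fell along a wide range of depth, from 521 to 30928 UMIs in WT and from 509 to 21482 in Q150X. Shares by depth were taken of the nuclei under the 2% cardiomyocyte limit, 7767 in WT and 7645 in Q150X. The share among those of at least 500 and under 1000 UMIs was 0.531% in WT (8 of 1508) and 2.56% in Q150X (24 of 937), and the intervals of 0.229% to 1.04% and 1.65% to 3.79% did not overlap. From 1000 UMIs the shares were 0.618% and 0.490%, from 1500 UMIs 0.236% and 0.764%, from 3000 UMIs 0.395% and 0.855% and from 6000 UMIs 0.614% and 1.15%, each up to the next limit. Shares were highest among the few nuclei of 12000 UMIs or more, at 2.17% (2 of 92) and 3.81% (8 of 210). The part of depth itself in these shares was not tested.

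**Figure D1:**
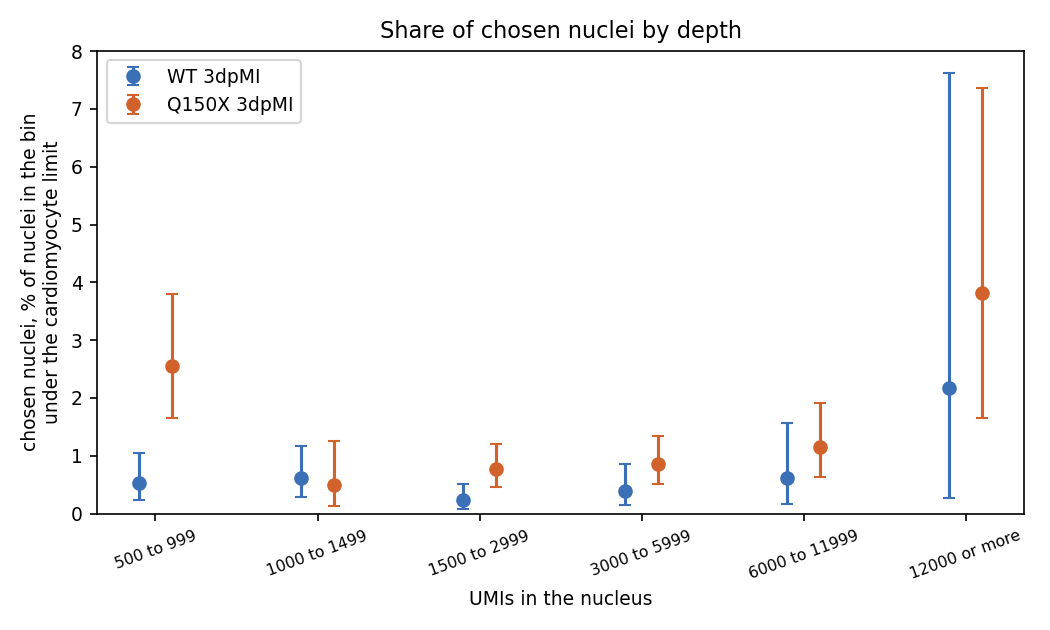
Share of chosen nuclei (y axis, % of the nuclei in the bin that pass the 2% cardiomyocyte limit) by UMIs per nucleus (x axis) in WT 3dpMI (blue) and Q150X 3dpMI (orange), with exact binomial 95% intervals. The libraries differ most under 1000 UMIs, with 0.531% in WT and 2.56% in Q150X, and both are highest at 12000 UMIs or more.

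Splitting the chosen nuclei at 1500 UMIs separated 45 shallow nuclei (17 WT, 28 Q150X) from 76 deep nuclei (18 WT, 58 Q150X). Median depths were 1010 and 663.5 UMIs in the shallow WT and Q150X nuclei and 3737 and 4721 UMIs in the deep ones. The rule genes made up 6919 CPM of the shallow WT nuclei and 9326 CPM of the shallow Q150X nuclei. In the deep nuclei the same genes made up 1159 and 1118 CPM, a difference set by the rule, which asks for a number of genes at any depth. Scrublet, a caller of droplets with 2 nuclei, marked 1 of the 45 shallow and 28 of the 76 deep nuclei.

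**Figure D2:**
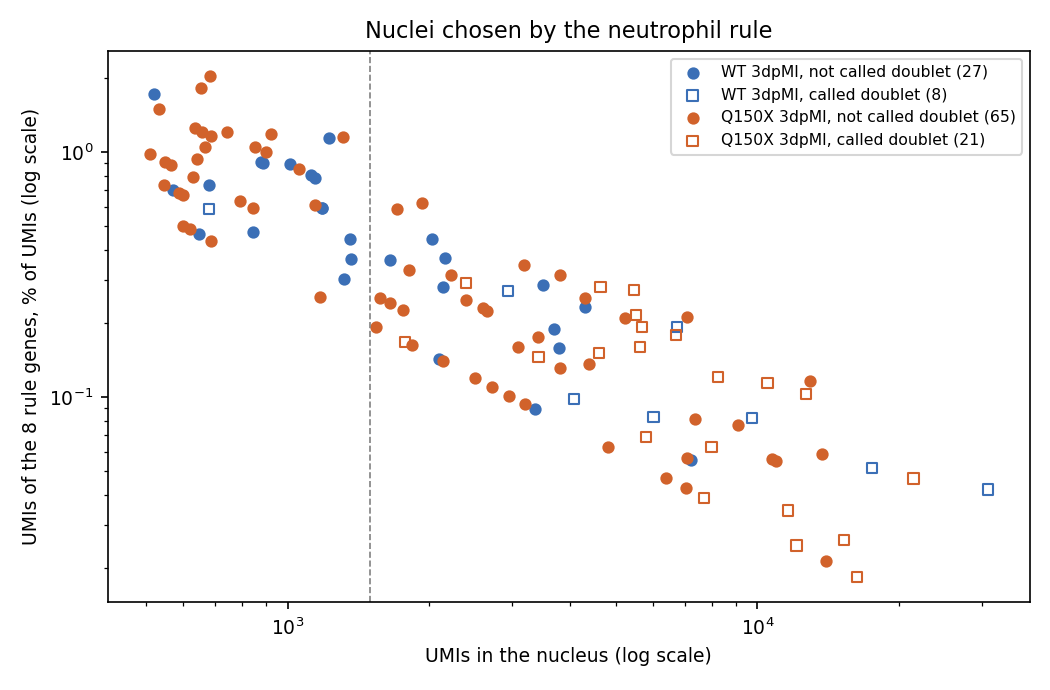
Every chosen nucleus by its UMIs (x axis, log scale) and the percentage of them from the 8 rule genes (y axis, log scale), in WT 3dpMI (blue) and Q150X 3dpMI (orange), with open squares for nuclei called doublets and a dashed line at 1500 UMIs. The percentage falls with depth, which the rule sets because it asks for a number of genes and not for a share, and 28 of the 29 called doublets lie to the right of the line.

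A list of mature blood neutrophil genes that the rule did not use gave an independent reading. It held Mxd1, a MYC antagonist of differentiating myeloid cells, Grina, Lrg1, Slpi, Arg2 and 9 more. Per nucleus these 14 genes gave 2.41 UMIs in shallow WT nuclei (1.73 to 3.27) and 2.32 in shallow Q150X nuclei (1.79 to 2.96). The deep chosen nuclei gave 2.06 (1.45 to 2.83) and 2.41 (2.03 to 2.85). Shallow and deep chosen nuclei thus held like numbers of UMIs of mature neutrophil genes at very different total depths. Macrophage nuclei held 0.165 to 0.689 UMIs of the list per nucleus, and all other nuclei 0.119 to 0.469, over both libraries and both depths. At least 1 UMI of the list was found in 10 of 17 and 21 of 28 shallow nuclei and in 12 of 18 and 47 of 58 deep nuclei, against 25.6% and 31.7% of the other nuclei of at least 1500 UMIs.

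**Figure D3:**
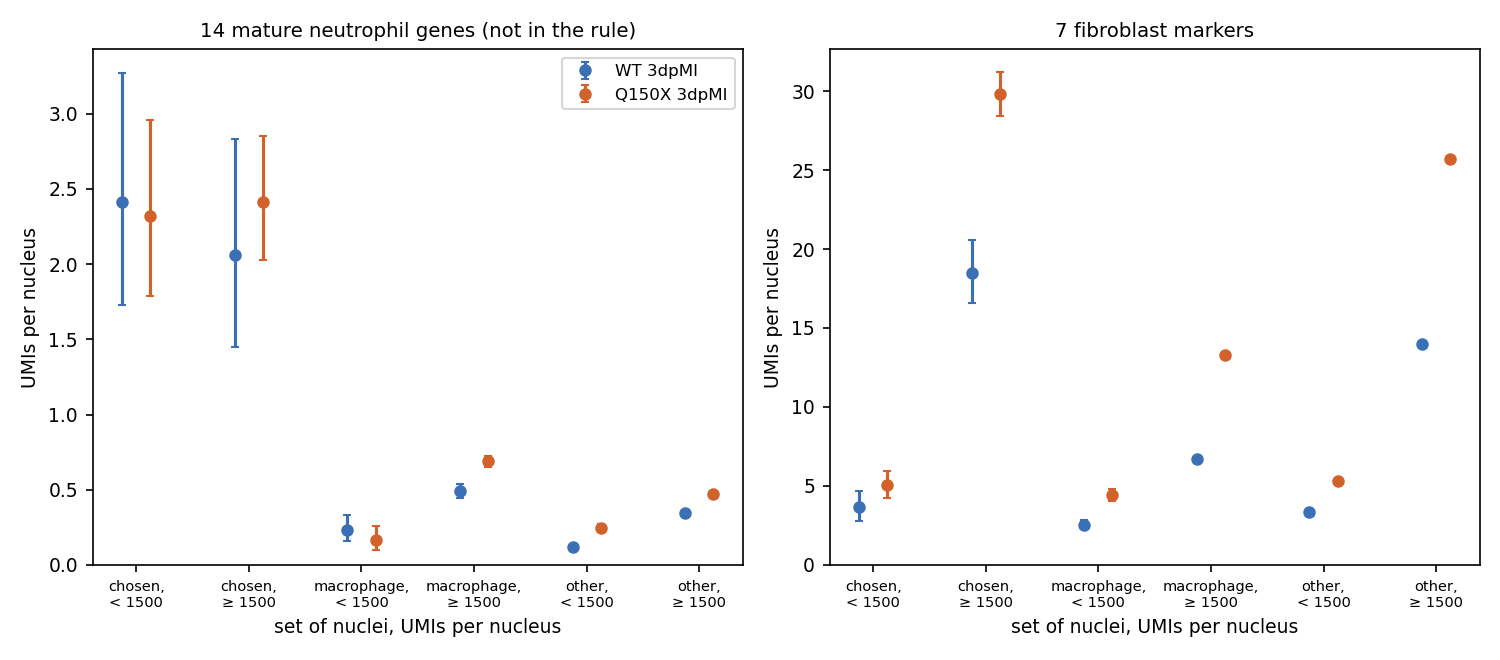
UMIs per nucleus of 14 mature neutrophil genes outside the rule (left) and 7 fibroblast markers (right), for chosen, macrophage and other nuclei under and over 1500 UMIs, in WT 3dpMI (blue) and Q150X 3dpMI (orange), with exact Poisson 95% intervals. The neutrophil genes stand at 2.06 to 2.41 in both depths of chosen nuclei and at 0.689 or less in all other sets, while the fibroblast markers are higher in the deeper nuclei of every set.

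The deep chosen nuclei also carried the transcripts of other heart cells. The 7 fibroblast markers, among them the collagen genes Col1a1, Col1a2 and Col3a1, gave 18.5 UMIs per deep WT nucleus and 29.8 per deep Q150X nucleus, against 3.65 and 5.04 in the shallow ones. Endothelial markers gave 14.9 and 6.74 UMIs per deep nucleus, against 2.0 and 0.964. Pericyte or smooth muscle markers gave 4.56 and 6.03, against 0.235 and 0.214. The other deep nuclei held 14 and 25.7 UMIs of fibroblast, 5.64 and 6.03 of endothelial and 2.99 and 2.39 of pericyte or smooth muscle markers. Per nucleus, the intervals of the deep chosen nuclei lay above these levels for each marker list in both libraries. They were 16.6 to 20.6 and 28.4 to 31.2 for fibroblast and 13.2 to 16.8 and 6.09 to 7.44 for endothelial markers. For pericyte or smooth muscle markers they were 3.62 to 5.65 and 5.42 to 6.70. Scaled to depth, the WT pericyte or smooth muscle markers were at 720 CPM (572 to 893), which includes the 653 CPM of the other deep nuclei. WT endothelial markers (2361 against 1233 CPM) and Q150X pericyte or smooth muscle markers (985 against 488 CPM) stayed above. Scaled in the same way, fibroblast markers were not above, at 2923 against 3070 CPM in WT and 4859 against 5244 CPM in Q150X. Nor were Q150X endothelial markers, at 1101 against 1230 CPM. Ebf1, on the B cell list but also expressed by stromal cells, had 218 and 996 UMIs in the deep nuclei, while the B cell genes Cd79a, Cd79b and Ms4a1 had none in any chosen nucleus.

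None of the 9 mast cell or basophil, 6 eosinophil or 9 T or NK cell markers had a UMI in the 45 nuclei. The 13 macrophage markers, which include the 5 genes the rule limits, summed to 15 UMIs in WT (0 to 2 per nucleus) and 37 in Q150X (0 to 6 per nucleus). Macrophage nuclei of the same depth, chosen on 5 of these markers, held 9.09 and 8.79 UMIs of that list per nucleus. Other nuclei under 1500 UMIs held 0.857 and 1.5, and the shallow chosen nuclei 0.882 (0.494 to 1.46) and 1.32 (0.93 to 1.82), whose intervals include those levels. Of the 7 monocyte markers, Ccr2, Ly6c2, F10 and Ms4a4c had no UMI in shallow chosen nuclei, and Vcan, Fn1 and Ms4a6c carried the 12 and 28 UMIs of the list. Cardiomyocyte markers were at 8182 CPM in the shallow WT nuclei and 2980 CPM in the shallow Q150X nuclei. The other nuclei under the same 2% limit, taken at every depth, also differed, at 2805 and 888 CPM. Macrophage nuclei under 1500 UMIs were at 4796 and 1808 CPM.

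Clustering all 3dpMI nuclei without the 8 rule and 5 macrophage genes placed 37 of the 121 chosen nuclei in 1 of 30 clusters, 36 of them shallow. That cluster held 737 nuclei with a median of 770 UMIs and was given no name, and 102 of its nuclei met the macrophage rule. A rule gene was seen in 18.0% of its WT nuclei and 36.6% of its Q150X nuclei, against 10.8% and 23.9% elsewhere. The deep chosen nuclei were scattered, with 16 in fibroblast-like, 10 in endothelial-like, 10 in pericyte or smooth muscle-like, 7 in macrophage-like, 2 in cardiomyocyte-like and 31 in unnamed clusters. Among themselves, the chosen nuclei split into 4 sub-clusters. The first had 46 nuclei (8 WT, 38 Q150X), a median of 867 UMIs and rule genes at 5337 CPM. The second had 35 nuclei, a median of 7046 UMIs, rule genes at 854 CPM, fibroblast markers at 6613 CPM and 16 called doublets. The third, of 23 nuclei with a median of 3804 UMIs, had 12 called doublets and the highest pericyte or smooth muscle markers, at 1714 CPM. The fourth had 17 nuclei (12 WT, 5 Q150X), a median of 1817 UMIs, endothelial markers at 5071 CPM and no called doublet. The clusters were built from the same counts, so these levels are a description. The first sub-cluster also had the highest macrophage markers, at 2064 CPM, and fibroblast markers at 3644 CPM, so none of the 4 was free of other cells' transcripts. The accounts of single genes below rest on the shallow nuclei.

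The rule genes themselves, which define the chosen nuclei and are given as a description, were led by Csf3r. It had 40 UMIs in 16 of 17 shallow WT nuclei and 61 in 27 of 28 shallow Q150X nuclei, or 2407 and 2932 CPM. The decoy interleukin-1 receptor Il1r2, which binds IL-1 without signalling, had 19 UMIs in 10 WT and 52 in 23 Q150X shallow nuclei. Hdc, which makes histamine, had 13 and 16 UMIs, and Cxcr2 had 11 and 12. The paired calcium-binding alarmins S100a8 and S100a9 had 17 and 18, and 11 and 23 UMIs. The gelatinase Mmp9 had 2 and 8 and the resistin-like gene Retnlg 2 and 4, the lowest counts in each library. At the threshold, 64 chosen nuclei had exactly 3 rule genes, with a median of 0.364% of UMIs from rule genes in WT and 0.166% in Q150X. Another 147 nuclei had exactly 2 and met all else, with medians of 0.147% and 0.152%.

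Shallow chosen nuclei were next set beside macrophage nuclei of the same depth (129 WT and 115 Q150X). Of 3538 genes with at least 20 UMIs over both sets, 13.1% (462) were at least 2-fold higher in the chosen nuclei and 25.3% (896) at least 2-fold lower. By any amount, 1435 of the 3538 genes were higher and 2068 lower, and counts of higher list genes below stand beside these. The median log2 ratio was -0.23, and the filter admits genes mainly through the more numerous macrophage UMIs. Sorl1, a sorting receptor abundant in neutrophils, had 38 UMIs in 14 of 17 WT and 40 in 17 of 28 Q150X shallow nuclei, a pooled ratio of 10.2 over macrophage nuclei (7.14 to 14.6). Lyst, a regulator of lysosome and granule size mutated in Chediak-Higashi syndrome, had 32 UMIs in 12 WT and 50 in 19 Q150X nuclei, a ratio of 13.3 (9.16 to 19.6). Mxd1 had 12 UMIs in 6 WT and 23 in 12 Q150X nuclei, a ratio of 18.3 (9.60 to 36.8). In both libraries the chosen nuclei lay above the macrophage nuclei for each of these genes with no overlap of their intervals. These genes were among those ranked highest by this same ratio, so the higher level was set by the choice and is a description.

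**Figure D4:**
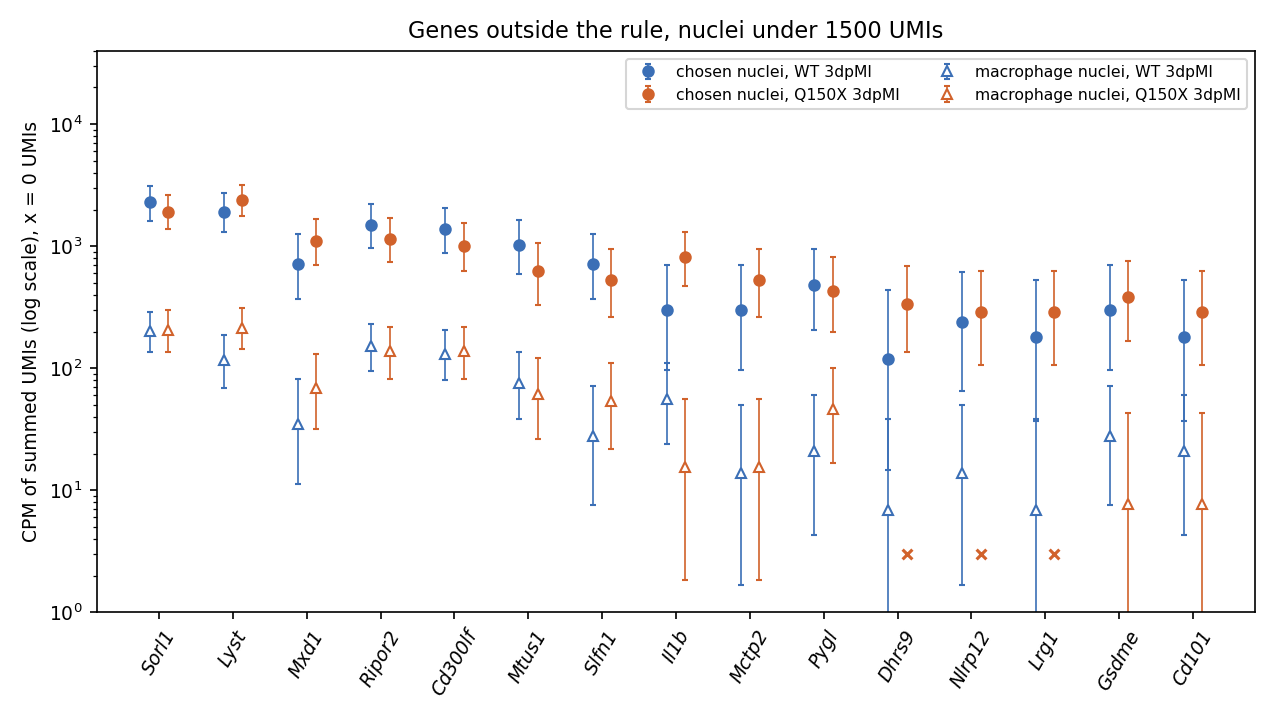
CPM (y axis, log scale) of 15 genes that the rule did not use, in chosen nuclei (filled circles) and macrophage nuclei (open triangles) under 1500 UMIs, in WT 3dpMI (blue) and Q150X 3dpMI (orange), with exact Poisson 95% intervals and crosses for 0 UMIs. The genes were picked from those ranked highest by the pooled ratio of these same sets, so their direction follows from the choice. Every gene shown is higher in chosen nuclei of both libraries, and the intervals of Il1b, Dhrs9, Lrg1 and Cd101 overlap in WT.

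Over all 121 chosen nuclei the 15 genes with the highest ratio included Il1b at 7.93 (5.99 to 10.4), Mxd1 at 5.38 (4.25 to 6.75) and Sorl1 at 4.35 (3.76 to 5.02). The other 12 were Sema5a, Grik2, Pcdh9, Sgip1, Enox1, Csmd1, Dlg2, Zfpm2, Cp, Slit2, Gucy1a2 and Meg3. These lay mainly in the deep nuclei: of 109 UMIs of Sema5a, a semaphorin, 2 were in shallow nuclei, and of 172 UMIs of the guidance cue Slit2, 1 was.

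The same ranking in shallow nuclei included other genes known from neutrophils or myeloid cells. Slfn1, a Schlafen family gene, had a ratio of 15.3 (7.16 to 34.8), and Pygl, the glycogen phosphorylase of liver and leukocytes, one of 13.8 (5.83 to 35.2). Ripor2, an inhibitor of RhoA that acts in neutrophil polarity, stood at 8.96 (5.78 to 14) and the inhibitory receptor Cd300lf at 8.70 (5.49 to 13.9). Haptoglobin (Hp) had 8 UMIs in 5 WT and 3 in 3 Q150X nuclei, and Nlrp12, a dampener of inflammatory signalling, 4 and 6 UMIs. Genes ranked lowest by the same ratio included macrophage genes outside the rule. The transcription factor Mitf had 2 UMIs in 1 of the 45 shallow chosen nuclei against 262 and 192 in the WT and Q150X macrophage nuclei. F13a1, a coagulation factor subunit made by macrophages, had 11 against 914. These counts are not scaled: the shallow chosen nuclei held 37423 UMIs in all and the shallow macrophage nuclei 273834.

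Most granule genes of marrow precursors were not detected. No UMI of Mpo, Elane, Prtn3, Ctsg, Ltf, Camp, Ngp, Mmp25, Fcnb or Cebpe was found in any of the 121 chosen nuclei, shallow or deep. Among the other 5 genes of that list, Chil3 had 0 UMIs in WT and 10 in 7 of 28 shallow Q150X nuclei. Lcn2, Mmp8, Ly6g and Cd177 had 0 to 2 UMIs each in the shallow nuclei of either library. The whole list summed to 120 CPM in shallow WT nuclei (14.6 to 435) and 817 CPM in shallow Q150X nuclei (476 to 1308), against 69.5 and 69.2 CPM in macrophage nuclei of that depth. The floor of 3 UMIs for a count of 0 is 180 CPM in the shallow WT nuclei and 144 CPM in the shallow Q150X nuclei. The exact interval of a count of 0 reaches 222 and 177 CPM, so lower levels were not detectable.

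Genes for leaving the blood and finding the site of injury were higher as a sum than in macrophage nuclei, at 3550 against 1411 CPM in shallow WT nuclei and 3125 against 1593 CPM in shallow Q150X nuclei. Of the 16 chemoattractant receptor and adhesion genes, 10 had enough UMIs, 9 of them higher than in macrophage nuclei and 4 at least 2-fold, beside 13.1% of all genes, with a median log2 ratio of 0.99. In WT alone 4 were measured, 2 of them higher and 2 lower, with a median of 0.29, and in Q150X alone 4 of 4 were higher, with a median of 0.94. The beta2 integrin chain Itgb2 had 6 UMIs in 5 WT and 8 in 7 Q150X nuclei, a ratio of 2.44 (1.23 to 4.56). The hyaluronan receptor Cd44 had 15 and 16 UMIs, a ratio of 1.99 (1.29 to 2.98). Itga4 had a ratio of 0.963 (0.444 to 1.87). The formyl peptide receptors Fpr1 and Fpr2, which sense bacterial and mitochondrial peptides, had 2 and 1 UMIs in shallow WT and 0 and 1 in shallow Q150X nuclei. The marrow-retention receptor Cxcr4 had 0 and 1.

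Receptors that sense danger were measured for 7 of 16 genes, none of them lower than in macrophage nuclei and 4 at least 2-fold higher, beside 13.1% of all genes, with a median log2 ratio of 1.11. By library fewer could be measured, with 1 higher and 1 lower in WT and 2 higher and 1 lower in Q150X. Il17ra, a subunit of the interleukin-17 receptor, had 5 UMIs in WT and 4 in Q150X, a ratio of 3.29 (1.32 to 7.57), and Il1rap, the accessory chain of IL-1 receptors, a ratio of 6.75. The paired immunoglobulin-like receptor Pirb had a ratio of 1.0 (0.530 to 1.76). Csf2rb, the common chain of the GM-CSF, IL-3 and IL-5 receptors, had 7 UMIs in 6 WT nuclei and 1 in Q150X. Trem1, an amplifier of neutrophil activation, had 2 UMIs in each library.

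The oxidase and lipid mediator genes gave a mixed picture. Of 12 genes of the oxidative burst and extracellular traps, 8 were measured, 5 of them higher and 3 lower than in macrophage nuclei. Past 2-fold was 1 in each direction, beside 13.1% of all genes higher and 25.3% lower. The catalytic oxidase subunit Cybb had 0 UMIs in WT and 1 in Q150X, against 32 and 24 in macrophage nuclei. Those macrophage nuclei held 143855 and 129979 UMIs in all, and the shallow chosen nuclei only 16621 and 20802. Padi4, which citrullinates histones when extracellular traps form, had 5 UMIs in 4 WT nuclei and 1 in Q150X. Of 11 lipid mediator genes, 7 were measured and 4 were at least 2-fold higher, beside 13.1% of all genes, including Alox5ap, the helper of 5-lipoxygenase in leukotriene synthesis, with 12 and 8 UMIs and a ratio of 3.25 (1.82 to 5.62).

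Of the 5 cytokine and chemokine genes measured, only Il1b and Cxcl2 were at least 2-fold higher than in macrophage nuclei, beside 13.1% of all genes. Another 1 was at least 2-fold lower, beside 25.3% of all genes, and the median log2 ratio was 0.13. Il1b, the secreted form of IL-1 that drives inflammation after infarction, had 5 UMIs in 4 WT and 17 in 8 Q150X shallow nuclei, a pooled ratio of 16.1 (7.31 to 38.1). Cxcl2, a ligand of Cxcr2 by which neutrophils attract further neutrophils, had 0 UMIs in the 17 WT and 23 in 11 of the 28 Q150X nuclei. Cxcl2 was at 97.3 CPM in shallow WT and 30.8 CPM in shallow Q150X macrophage nuclei. The interval of the shallow Q150X nuclei (701 to 1659 CPM) lay above that level. A count of 0 allows the shallow WT nuclei up to 222 CPM, which does not place them above or below. Tnf had 0 and 3 UMIs, Ccl3 0 and 1, Osm 0 and 1, and Il1a and Il23a none. Of the genes linked to neutrophils that age in tissue, Siglecf had no UMI in shallow nuclei and 2 and 3 in deep nuclei, and Cd274, Icam1, Xbp1, Nlrp3 and Dusp4 each had 0 to 3 in shallow nuclei.

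Regulators and response genes were present at low counts. Of 22 transcription factors, 14 were measured, 11 of them higher than in macrophage nuclei, beside 1435 of all 3538 genes. At least 2-fold higher were 5 and at least 2-fold lower 2, beside 13.1% and 25.3% of all genes. Bcl6, a transcriptional repressor, had a ratio of 7.32. Rara, a retinoic acid receptor of granulocyte differentiation, had 1 UMI in WT and 14 in 8 Q150X nuclei, a pooled ratio of 5.49 (2.61 to 11.3). The survival factor Mcl1, on which neutrophils depend, had 15 UMIs in 8 WT and 15 in 14 Q150X nuclei, a ratio of 3.23 (2.03 to 5.03). Mcl1 was the only higher gene of 7 measured survival and cell death genes, whose median log2 ratio was -0.99. At least 2-fold lower were 3 of them, beside 25.3% of all genes, and Xiap, Birc3 and Cflar had 1 to 3 UMIs in each library. Of 13 measured hypoxia and glycolysis genes, 10 were higher and 4 at least 2-fold, beside 13.1% of all genes. By library, 4 of 4 were higher in WT (median log2 0.80), and 3 were higher and 3 lower in Q150X (median -0.29). The pooled ratio was 1.61 (0.686 to 3.36) for Hif1a and 1.20 (0.520 to 2.44) for Pfkfb3. Interferon response genes gave 13 UMIs in shallow WT and 26 in shallow Q150X nuclei, or 782 and 1250 CPM, with overlapping intervals. NF-kB response genes gave 18 and 27 UMIs, or 1083 and 1298 CPM. Against macrophage nuclei the median log2 ratio was -0.71 for 7 measured interferon response genes and -0.94 for 5 NF-kB response genes. It was -1.07 for 5 angiogenic and growth factor genes, beside -0.23 over all genes.

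The shallow nuclei held too few UMIs to place the edited gene above or below its level elsewhere, while transcripts of its receptors were seen, mainly in WT. Vegfa had 1 UMI in shallow WT and 0 in shallow Q150X nuclei, and 13 UMIs in 4 of 18 and 26 in 16 of 58 deep nuclei. All nuclei that were not chosen held 204 CPM of Vegfa in WT and 127 CPM in Q150X. A count of 0 allows the shallow Q150X nuclei up to 177 CPM, so they could hold that level. The WT count is likewise too low to tell. Vegfb had no UMI in shallow nuclei. The endothelial receptor Kdr had 5 and 3 UMIs, Nrp2 2 and 2, and Nrp1 12 in 5 WT and 3 in 3 Q150X nuclei. Flt1, the decoy VEGF receptor also found on some myeloid cells, had 16 UMIs in 5 WT and 7 in 5 Q150X shallow nuclei, a Q150X over WT ratio of 0.350 (0.122 to 0.898). Endothelial markers as a whole were also higher in the shallow WT nuclei, at 2046 against 1298 CPM, and their part in the Flt1 value was not tested.

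The libraries were then compared by genotype. Over all chosen nuclei, 5360 genes had at least 20 UMIs, of which 10.6% (570) were at least 2-fold higher in Q150X and 5.63% (302) at least 2-fold lower. The 16 genes ranked clearest by ratio were 8 in each direction. Higher in Q150X was Cemip, a hyaluronan-binding protein (1 UMI in WT, 79 in 3 Q150X nuclei). So was the matrix protein gene Cilp (0 and 51 UMIs), at 5.90 times a floor of 3 UMIs over the WT nuclei. This fold leaves out the counting error of the 51 UMIs. Also higher were Nox4, Ltbp2, Diaph3, Klhl29, Col8a1 and Cxcl2 (2 and 69 UMIs). Lower were the angiopoietin receptor Tek, with a ratio of 0.267 (0.175 to 0.404), Plcb1, with 0.217 (0.176 to 0.267), and Tmem108, Nr3c2, Pkp4, Rasgef1b, Lims2 and Ltbp1. Cemip, Nox4 and Klhl29 had no UMI in the shallow nuclei, and Cilp, Ltbp2 and Col8a1 had 1, 4 and 11 in shallow Q150X nuclei. The sub-cluster with most endothelial markers held 12 of 35 WT and 5 of 86 Q150X chosen nuclei, and 1 WT nucleus of 30928 UMIs gave 23.7% of all WT UMIs. The part of this make-up in the genotype differences was not tested.

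In the 45 shallow nuclei, where 218 genes had at least 20 UMIs, 10.1% (22) were at least 2-fold higher in Q150X and 14.7% (32) at least 2-fold lower. The shallow nuclei were spread differently over the clusters, with 10 of 17 in WT and 26 of 28 in Q150X in the cluster that held most chosen nuclei, and the part of this in the differences was not tested. Among genes outside the rule, the Q150X over WT ratio of Sorl1 was 0.841 (0.526 to 1.35), and Lyst and Mxd1 lay at 1925 and 2404 CPM and at 722 and 1106 CPM with overlapping intervals. Within that cluster the log2 ratio of Mxd1 was -0.24 (-1.31 to 0.91), against 0.61 (-0.45 to 1.76) in all shallow nuclei. Over whole lists, the mature neutrophil genes summed to 2467 CPM in WT (1770 to 3346) and 3125 CPM in Q150X (2412 to 3983). The cytokines and chemokines summed to 722 CPM (373 to 1261) and 2884 CPM (2201 to 3713), and these intervals did not overlap. Markers of other cells in the same nuclei differed in both directions. Macrophage (902 and 1779 CPM) and fibroblast markers (3730 and 6778 CPM) were higher in Q150X. Endothelial (2046 and 1298 CPM) and cardiomyocyte markers (8182 and 2980 CPM) were lower, and their part was not tested.

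Cxcl2 was the member of the cytokine list that differed most. Its 23 UMIs in shallow Q150X nuclei were 1106 CPM, 6.13 times a floor of 3 UMIs over the shallow WT nuclei. This fold leaves out the counting error of the 23 UMIs. In deep nuclei Cxcl2 had 2 UMIs in WT and 46 in 14 of 58 Q150X nuclei. Cxcl2 also differed outside the chosen nuclei, with 11.4 CPM in WT and 115 CPM in Q150X among other nuclei under 1500 UMIs, and 13.0 and 47.1 CPM among all nuclei that were not chosen. Il1b was at 301 CPM in WT and 817 CPM in Q150X, a ratio of 2.72 whose interval of 0.962 to 9.42 includes 1. Other nuclei under 1500 UMIs also differed, with 19.2 and 71.0 CPM of Il1b. Its log2 ratio was 1.44 in all shallow nuclei and 0.65 (-0.84 to 2.45) within the cluster that held most of them, and in deep nuclei the ratio was 0.779 (0.407 to 1.57). Il1r2, which the rule used, was at 1143 and 2500 CPM, given as a description, beside 20.2 and 108 CPM in other nuclei under 1500 UMIs.

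Further genes with differences in the shallow nuclei likewise differed in the other nuclei. Runx1, a transcription factor of blood cells, had 3 UMIs in WT and 25 in 15 of 28 Q150X nuclei, a ratio of 6.66 (2.03 to 34.5). In other nuclei under 1500 UMIs it was at 337 CPM in WT and 860 CPM in Q150X. Spp1 (osteopontin), singled out after its values were seen, had 2 and 21 UMIs, a ratio of 8.39 (2.05 to 73.8), and stood at 161 and 592 CPM in those other nuclei. Col1a1, likewise singled out, had 9 and 50 UMIs, a ratio of 4.44 (2.16 to 10.3), beside 876 and 1601 CPM. Col1a1 is known from fibroblasts and Spp1 from macrophages, and the part of RNA from other cells in the remaining differences was not tested. The chitinase-like gene Chil3 had 0 and 10 UMIs in the shallow nuclei, and 16.8 and 69.1 CPM in the other nuclei under 1500 UMIs.

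**Figure D5:**
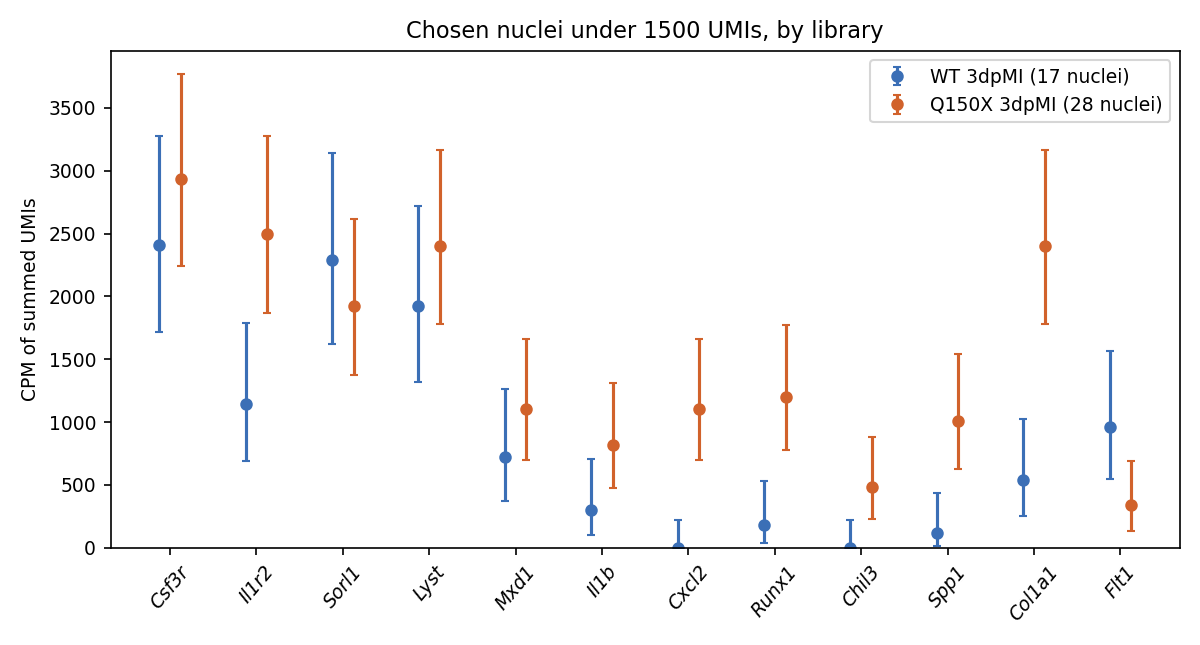
CPM (y axis) of 12 genes in the chosen nuclei under 1500 UMIs of WT 3dpMI (blue, 17 nuclei) and Q150X 3dpMI (orange, 28 nuclei), with exact Poisson 95% intervals. Csf3r and Il1r2 are rule genes, the intervals of Sorl1, Lyst and Mxd1 overlap between the libraries, while Cxcl2 is at 0 in WT and 1106 CPM in Q150X, and Runx1, Spp1 and Col1a1 are also higher in Q150X.

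The wider lists over all chosen nuclei had small numbers of measured genes, and at most 2 in each direction were past 2-fold between genotypes. Of 15 measured transcription factors 1 was at least 2-fold higher and 2 at least 2-fold lower in Q150X, beside the 10.6% and 5.63% of all genes. Of 10 measured chemoattractant receptor and adhesion genes 2 were higher and 1 lower by that fold, and of 8 danger receptors 1 and 2. The median log2 ratio was 0.70 for the oxidative burst list (7 genes, 2 at least 2-fold higher), with median bounds of -0.18 and 1.69. It was -0.75 for the angiogenic and growth factor list (6 genes, all lower, 1 at least 2-fold), with median bounds of -1.47 and -0.08, against 0.06 over all genes. The 1 oxidative burst gene measured in the shallow nuclei was at 0.05, and in the cluster that held most of them at -0.63. In the hypoxia and glycolysis list Pkm was higher in Q150X, with 12 and 79 UMIs and a ratio of 2.29 (1.24 to 4.61), but not when each nucleus had equal weight. In the shallow nuclei Pkm had 5 UMIs in WT and 4 in Q150X.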

How the data were processed

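The deposited values are unnormalized UMI counts for 33954 genes. The file headers name Cell Ranger 7.1.0 and the submitters' processing notes name GRCm39 and Scanpy. The library kit was the 10x Genomics 5' kit, per the labels' protocols. The sources used here do not say how barcodes were filtered before deposit. Gene symbols are those of the deposited matrices, and no coordinates are used.

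UMIs were summed per library and set of nuclei and scaled to CPM. Sums have exact Poisson, shares exact binomial (Clopper-Pearson) and ratios exact conditional binomial or, for shares, log intervals, all at 95%. UMIs of 1 library are not independent animals, so no p-value is given. A count of 0 was bounded at 3 UMIs over the set. Gene comparisons used at least 20 UMIs and a fold of 2. Doublets were called with Scrublet (Scanpy 1.11.5) and kept in the main values. Clustering used Leiden (leidenalg 0.10.2) on 2000 variable genes, 30 components and resolution 2. Python 3.11.15, numpy 2.4.6 and scipy 1.17.1 were used. The steps were tested on simulated data.

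The rule for nuclei, the gene lists and the tests were chosen with earlier results of these data known. The split at 1500 UMIs and the clustering without rule genes were added after seeing the data. Named genes were the 15 with the highest ratio over macrophage nuclei and the 8 highest and 8 lowest by genotype, ranked by the interval bound with at least 50 UMIs, the most abundant and most extreme of each list, the VEGF genes and the rule genes. The genes ranked in shallow nuclei and further list members were chosen after their values were seen. Il1f9 and Mx2 did not match a symbol in the files. Some genes are not reported here.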

Additional observations from a re-analysis of the deposited data

How the results depend on the processing

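Every alternative kept the share of chosen nuclei higher in Q150X than in WT at 3dpMI, with ratios from 1.52 to 3.43. Requiring 4 rule genes moved the shares to 0.208% in WT and 0.468% in Q150X. Leaving S100a8 and S100a9 out of the rule moved the WT share to 0.251%. Thinning to 1000 UMIs gave 0.119% and 0.182%, a ratio of shares of 1.52 and a ratio of chosen to macrophage nuclei of 0.784. Chosen nuclei under 1500 UMIs alone made up 0.186% and 0.345% of the nuclei of every depth, a ratio of shares of 1.86. Set against macrophage nuclei of every depth, their ratio was 0.863. Macrophage nuclei under 1500 UMIs numbered 129 in WT and 115 in Q150X, beside 17 and 28 chosen nuclei of that depth. The single cluster without rule genes gave 0.109% and 0.333%. The ratio to macrophage nuclei was thus below 1 under 2 settings and its interval included 1 under each of them. In 1 of these settings the depth limit applied to the chosen nuclei and not to the macrophage nuclei.

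The number of genes at least 2-fold higher and lower in Q150X, 570 and 302, became 986 and 565 with nuclei weighted equally, 129 and 97 with at least 50 UMIs per gene, 4 and 23 after thinning, 22 and 32 in nuclei under 1500 UMIs, and 20 and 18 in the single cluster. With 4 rule genes 320 were higher. Fewer genes reach the count minimum in the smaller sets. Pkm changed direction with nuclei weighted equally, to a log2 ratio of -0.14. Of 122 list medians under the alternatives, 111 stayed within the interval of the main value, and of 594 values of named genes, 533 did. Part of this was fixed in advance. The 5% mitochondrial limit kept the same 35 and 86 chosen nuclei, which gave 14 of the medians and 80 of the gene values. A minimum of 50 UMIs leaves a gene's own ratio unchanged, which gave 56 of the gene values. In the chosen nuclei under 1500 UMIs, 10 gene values moved out of the interval and 5 stayed. There 5 list medians moved and 3 stayed. With doublets removed, 19 gene values moved and 42 stayed, and 2 list medians moved and 11 stayed. The cause of the values that moved was not tested. No paired analysis was possible because each group is 1 library. A further limit of the data is depth, with 16621 WT and 20802 Q150X UMIs in the shallow chosen nuclei.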
